A study of Homo sapiens with 4 samples.

Results

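The transcripts that parted between an early and a late time of treatment were read from 2 arrays, 1 of SUM149 cells after 3 h and 1 after 12 h in 2.5 uM ACY1215. SUM149 is a line derived from an inflammatory breast cancer, and ACY1215 (Ricolinostat) is an inhibitor that prefers HDAC6, a cytoplasmic deacetylase of tubulin. The series holds 4 arrays in all, the others being untreated cells and cells after 6 h in the same dose, each of 1 culture with no replicate. On each array the sample was labelled with Cy5 and a common reference, labelled as a pool of all SUM149 samples, with Cy3. No genotype differed between the groups, and no vehicle-treated culture of 3 h or 12 h was analysed here, so time in the drug and time in culture cannot be told apart.

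For every gene the log2 of Cy5 over Cy3 at 3 h was taken from that at 12 h. A spot entered when both dyes were well above background on both arrays, when it was not marked as an outlier, and when its Cy3 signal differed by no more than 2-fold between the arrays. Of 51599 spots with a gene symbol 29642 passed, which gave 20750 of 34755 genes. The Cy3 limit removed 758 spots, and 417 genes were lost by it. Where several probes of a gene passed, the probe with the brighter Cy3 signal was kept. A positive difference means a higher ratio to the Cy3 reference at 12 h, and a difference of 1 on the log2 scale is 2-fold. Cy3 signals that differ between the arrays, within the limit, move this value too. With 1 array a side there is no test, and every value below lacks a replicate check.

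HDAC inhibitors act on many proteins beyond histones. HDAC6 removes acetyl groups from alpha-tubulin, cortactin and the chaperone HSP90, and it carries ubiquitinated protein to the aggresome. Nuclear class I enzymes act on histones, and their inhibition is known to raise genes such as CDKN1A, the p21 inhibitor of cyclin-dependent kinases. Early transcripts of a stimulus are often those of transcription factors with short-lived mRNA, and later ones often encode secreted factors, chaperones and structural proteins.

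Pairs of genes that were higher together at 12 h are shown by the 250 bases before their start (RefSeq, GRCh38.p14), printed 5′ to 3′ along the gene's own strand. IL6 (chr7:22726950-22727199, plus strand) and CXCL8 (chr4:73740319-73740568, plus strand) encode interleukin-6 and interleukin-8, and capitals mark the letters GGANTTTCC, a form of the kappaB motif bound by NF-kB. HERPUD1 (chr16:56931892-56932141, plus strand) and HSPA5 (chr9:125241344-125241593, minus strand) serve protein quality control in the endoplasmic reticulum, and capitals mark the ER stress elements ATTGGNCCACG in HERPUD1 and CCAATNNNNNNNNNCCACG in HSPA5.
IL6: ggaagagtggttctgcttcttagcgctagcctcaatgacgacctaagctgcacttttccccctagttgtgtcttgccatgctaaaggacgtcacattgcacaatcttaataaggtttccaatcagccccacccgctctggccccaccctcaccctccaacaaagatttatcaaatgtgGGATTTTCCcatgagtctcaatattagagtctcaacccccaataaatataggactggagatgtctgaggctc
CXCL8: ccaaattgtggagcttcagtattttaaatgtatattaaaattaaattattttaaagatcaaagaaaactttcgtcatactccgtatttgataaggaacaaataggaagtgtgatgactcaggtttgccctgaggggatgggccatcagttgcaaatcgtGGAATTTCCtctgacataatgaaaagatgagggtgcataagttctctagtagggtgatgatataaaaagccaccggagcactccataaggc
HERPUD1: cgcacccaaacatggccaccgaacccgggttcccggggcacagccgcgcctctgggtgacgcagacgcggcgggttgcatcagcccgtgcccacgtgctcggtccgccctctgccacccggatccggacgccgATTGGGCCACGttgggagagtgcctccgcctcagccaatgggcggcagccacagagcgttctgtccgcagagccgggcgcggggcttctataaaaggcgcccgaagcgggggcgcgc
HSPA5: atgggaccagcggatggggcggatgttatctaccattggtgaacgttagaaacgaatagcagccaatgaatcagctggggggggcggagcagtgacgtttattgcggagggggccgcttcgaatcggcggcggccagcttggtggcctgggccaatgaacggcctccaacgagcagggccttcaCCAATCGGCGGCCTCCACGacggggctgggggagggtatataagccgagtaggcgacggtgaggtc

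The motifs were sought on both strands of such windows, 1 for each of 27305 genes, after the values of these genes were known. The 3 motifs do not overlap each other in the printed windows. GGANTTTCC stood in 1.47% of all windows and in 7 of the 13 windows available for the cytokine genes described below. The matches lay in IL6 and CXCL8, in IL32, and in the CXCR2 ligand genes CXCL1, CXCL2, CXCL3 and CXCL5. The differences of those 7 genes ran from 0.01 at CXCL5 to 2.17 at IL6, so a match and a large difference did not go together in all of them. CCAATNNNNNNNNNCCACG stood in 0.0806% of all windows and in 6 of 21 windows of endoplasmic reticulum genes. ATTGGNCCACG stood in 0.0513% of all windows and in 3 of those 21. The 6 were CALR, CANX, CRELD2, HSP90B1, HSPA5 and XBP1, the 3 were HERPUD1, HYOU1 and SDF2L1, and only HSPA5 and HERPUD1 among these 9 genes differed by 2-fold or more. A match is a run of letters and says nothing of binding in these cells.

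At 12 h 378 genes were at least 2-fold higher than at 3 h, which is 1.82% of the 20750 genes compared, and 268 were at least 2-fold lower, which is 1.29%. The median difference over all genes was 0.0061, the SD 0.42, and 9 in 10 genes lay between -0.66 and 0.69. Spots of 1 probe printed several times on the array gave the error within arrays: over 197 probes with at least 9 such spots the SD of the difference was 0.12. This error holds hybridisation and scanning only and no spread between cultures. Only 15 genes were at least 4-fold higher and 9 at least 4-fold lower. At the 2-fold line RAB39B (1.0011) fell just inside and LRRC20 (0.9999) just outside among the higher genes, and SLC35F2 (-1.0014) and lnc-STYX-2 (-0.9987) did so among the lower ones.

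**Figure D1:**
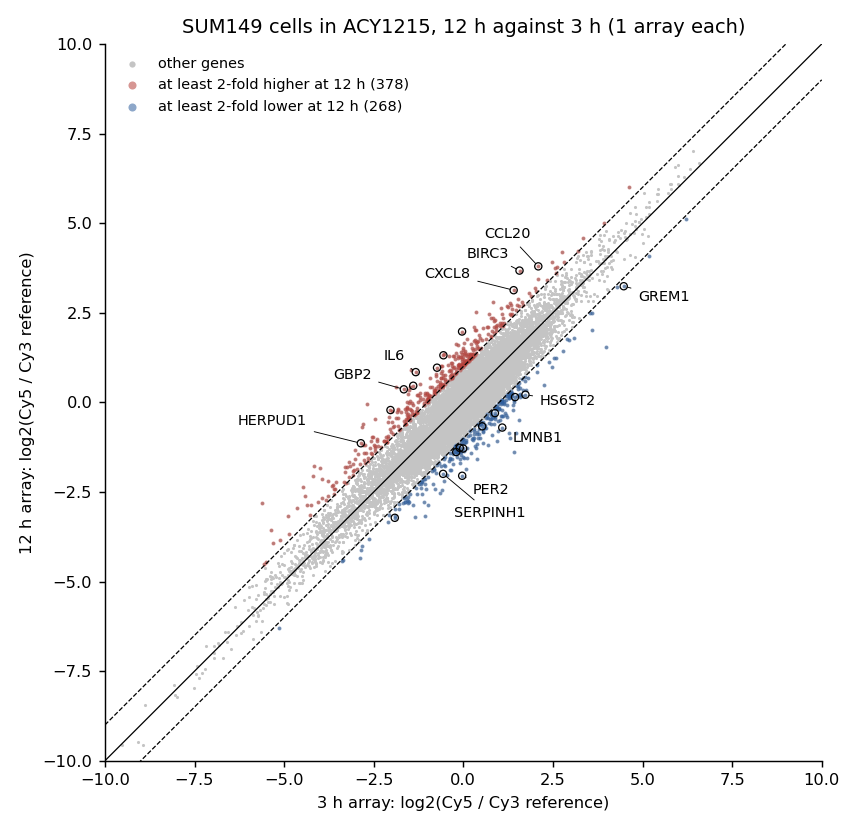
Each point is 1 of 20750 genes, with its log2 ratio of Cy5 over the Cy3 reference on the 3 h array (x axis) and the 12 h array (y axis). The solid line marks equal values, the dashed lines mark 2-fold, red and blue points are the 378 higher and 268 lower genes, and circles mark the 23 genes described by name. The cloud lies along the diagonal, and CCL20, BIRC3, CXCL8, IL6, GBP2 and HERPUD1 sit above its upper dashed line.

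Dim genes passed 2-fold more often than bright ones. Of genes with a mean Cy5 signal above the median of 633 units, 1.23% differed by 2-fold or more, while 4.99% of the dimmer ones did. Among the brighter genes 83 were higher and 45 lower. Among the 2075 brightest genes, above 10600 units, 19 were higher and 2 lower. Names of long noncoding or uncharacterised transcripts (lnc-, LOC, XLOC, LINC) made up 41.4% of the lower genes and 20.9% of the higher ones, against 23.2% of all genes compared. The median Cy5 signal of the lower genes was 187 units at 3 h and 78.9 at 12 h, and that of the higher genes 93.2 and 193 units, all of them below the median of all genes. With a background correction that adds an offset of 50 before the log (normexp with loess), which shrinks differences of dim spots, 65 genes were higher and 88 lower, so that the share of higher genes among those past 2-fold went from 58.5% to 42.5%. Of the 378 higher genes 57 were 2-fold higher by that correction, as were 42 of the 268 lower ones, and none of the 646 turned its sign.

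**Figure D2:**
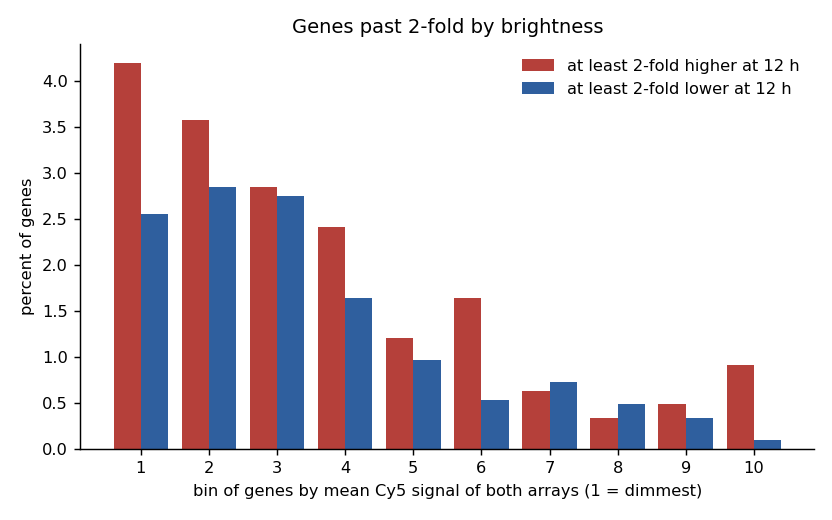
Genes were put in order of their mean Cy5 signal on both arrays and split into 10 bins of equal size (x axis), and bars give the percent of each bin that was at least 2-fold higher (red) or lower (blue) at 12 h. The dimmest bin has 4.19% higher and 2.55% lower, and the brightest has 0.916% and 0.0964%.

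The arrays lay on 1 slide and were scanned at 1 time. On the 3 h array 5.86% of spots lay in areas with a damaged Cy3 signal, and 0.264% on the 12 h array. Of the 646 genes past 2-fold 34 (5.26%) lay in such areas, against 3.6% of all genes compared. The share of gene spots well above background in Cy5 was 66.2% at 3 h and 63.0% at 12 h, and no spot was saturated. Although the reference is labelled as a pool of the same cells, Cy3 was at least 8-fold brighter than Cy5 at 550 genes on both arrays, so a level below means a level against that reference and nothing more. All 11 epithelial and basal markers expected in SUM149, among them EPCAM, CDH1, KRT5 and KRT14, were well above background. Their Cy5 signals were 2830 to 469000 units at 3 h and 2040 to 467000 at 12 h. The lowest of them, EGFR, was dimmer than the leukocyte markers CD79A and CD14 given below. Being above background does not by itself tell cell types apart. Markers of other cells were well above background too, though dimmer: 4 of 5 luminal receptor genes (up to 1620 units at 3 h), 4 of 5 fibroblast genes (up to 1020), all 4 endothelial genes (up to 704) and all 4 hepatocyte genes (up to 695). PGR, the progesterone receptor, and COL3A1, a fibroblast collagen, were the exceptions on both arrays. All 6 leukocyte markers printed on the array passed that line, CD79A at 4760 and 5820 units and CD14 at 3030 and 3350, and their summed signal was 9067 units at 3 h and 10472 at 12 h. The part of other cell types in the results was not tested.

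HDAC6 itself was measured by 2 probes, and neither passed 2-fold. On the brighter one (A_23_P250455) the log2 ratio was -0.70 in untreated cells, -1.23 at 3 h, -1.24 at 6 h and -1.40 at 12 h, a difference of -0.17 between 12 h and 3 h. On the dimmer one (A_33_P3320619) the values were 0.28, -0.18, 0.13 and -0.25, a difference of -0.07, which is within the error of repeated spots. Both probes were lowest at 12 h among the 4 arrays. In the Cy5 channel alone the brighter probe differed by -0.44. The brighter probe lay in a damaged area of the 3 h or 12 h array. With such areas left out HDAC6 differed by -0.07, the value of the dimmer probe. Of 15 genes around HDAC6 and tubulin acetylation none passed 2-fold (median 0.09). SIRT2, the other deacetylase of tubulin, had the largest difference there at 0.61, and HDAC10, a relative of HDAC6, the most negative at -0.46. None of 14 nuclear deacetylases and their partners passed 2-fold (median -0.04), with HDAC8 at 0.47 and HDAC9 at -0.40 as the ends.

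The genes with the largest differences that also kept 2-fold under the offset of 50 and in the Cy5 channel alone, lay outside damaged areas and had other probes, where any passed, with a median of the same sign numbered 44 higher and 24 lower, and 11 of the first 12 higher genes and the first 12 lower ones are described. Their untreated and 6 h values come from arrays that the comparison did not use. Across the 44 higher genes the median log2 ratio was -0.93 in untreated cells, -0.56 at 3 h, 0.37 at 6 h and 0.86 at 12 h. Across 19 of the lower genes, leaving out 5 known only by clone or locus names, it was 0.82, 0.88, 0.13 and -0.67. The 6 h median lay between the 3 h and 12 h medians in both groups. Because the 3 h and 12 h values chose these genes, a 6 h median between them would be likely from array noise too. It is therefore no support for a graded course.

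The higher genes described first take part in inflammation or the interferon response. IL6, a cytokine of the acute-phase response, stood at -0.95 in untreated cells, -1.33 at 3 h, -0.48 at 6 h and 0.84 at 12 h, and its Cy5 signal went from 780.7 units at 3 h to 3514 at 12 h, 4.50-fold by ratio. BIRC3, an inhibitor of apoptosis that NF-kB induces, stood at 1.74, 1.57, 2.65 and 3.68, a difference of 2.11. CXCL8, the neutrophil attractant interleukin-8, stood at 1.17, 1.40, 2.53 and 3.13, a difference of 1.73. CCL20, the ligand of CCR6, stood at 1.08 in untreated cells, 2.09 at 3 h, 3.01 at 6 h and 3.80 at 12 h. CXCL8 and CCL20 were thus higher on each later array, though their 3 h and 12 h values chose them. GBP2, an interferon-induced GTPase, stood at -2.32, -1.66, -0.70 and 0.36, a difference of 2.02. GBP2 was dim, with a Cy5 signal of 106.2 units at 3 h and 371.0 at 12 h, and its difference was 1.07 with the offset of 50. For IL6, CXCL8 and CCL20 the Cy3 signals of the arrays differed by no more than 0.05 on the log2 scale, and for BIRC3 Cy3 was 0.34 higher at 12 h, so that its Cy5 signal alone differed more, by 2.56.

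Others of the higher genes, the pseudogene WFDC21P apart, are known from nerve cells. MAP2, a microtubule protein of dendrites, stood at -0.36 in untreated cells, -0.03 at 3 h, 1.28 at 6 h and 1.98 at 12 h, and was dim, with a Cy5 signal of 147.6 units at 3 h and 506.1 at 12 h. RIMS3, a protein of the presynaptic active zone, stood at -1.55, -0.56, 0.59 and 1.31, and its second probe differed by 1.21. NBEA, a scaffold of membrane traffic, stood at -1.82, -2.03, -0.80 and -0.21. SH3GL3, an endophilin of endocytosis, stood at -1.17, -0.73, 0.74 and 0.97, and so had most of its difference at 6 h. WFDC21P, a transcribed pseudogene, stood at -1.33, -1.40, -0.43 and 0.46. For MAP2, RIMS3, NBEA, SH3GL3 and WFDC21P the order from 3 h to 6 h to 12 h was upward. In each the 6 h value was at least 0.96 above the 3 h one. The choice of these genes by their 3 h and 12 h values favours both, so they describe only.

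HERPUD1, an endoplasmic reticulum membrane protein that aids disposal of misfolded proteins, stood at -2.74 in untreated cells, -2.86 at 3 h, -2.43 at 6 h and -1.14 at 12 h, with the larger step from 6 h to 12 h, as in IL6 and GBP2. Its Cy5 signal was 8675 units at 3 h and 23978 at 12 h, and its difference of 1.72 was 1.66 with the offset of 50.

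PER2, a repressor of the circadian clock, was the lowest of the named genes at 12 h against 3 h. Its log2 ratio was -0.31 in untreated cells, -0.03 at 3 h, -0.47 at 6 h and -2.05 at 12 h, a difference of -2.02 or 4.05-fold, with its other probe at -1.35. LMNB1, lamin B1 of the nuclear envelope, stood at 1.28, 1.09, 0.10 and -0.70. HS6ST2, a sulfotransferase of heparan sulfate, stood at 1.75, 1.73, 1.14 and 0.21. Untreated and 3 h values were close in HS6ST2, and the later values were lower in both genes. SERPINH1, the collagen chaperone HSP47, stood at -0.47, -0.56, -0.96 and -1.99. UTP20, a factor of ribosome assembly, stood at 0.86, 0.53, 0.13 and -0.67, and METTL8, an RNA methyltransferase, at 0.82, 0.88, 0.19 and -0.30. The untreated spot of METTL8 failed the checks of detection, outlier flags or damage, so its untreated value is uncertain. FAM216A stood at 0.06, -0.20, -0.60 and -1.39. These 7 genes had their lowest value at 12 h among the 4 arrays, which their choice by 12 h against 3 h favours.

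CLMP, an adhesion molecule of epithelial junctions, stood at -1.16, -1.91, -2.77 and -3.22, and KLHL35, a kelch-like protein, at 2.08, 1.44, 1.05 and 0.15. BAIAP2L2, which bends membranes at cell protrusions, stood at 0.51, -0.0038, -0.46 and -1.29. In these 3 genes the 3 h value was already below that of untreated cells by 0.51 or more. GREM1 and CBFA2T2 had the opposite early course. GREM1, a secreted antagonist of bone morphogenetic proteins, stood at 3.51 in untreated cells, 4.48 at 3 h, 4.13 at 6 h and 3.24 at 12 h, and CBFA2T2, a transcriptional corepressor, at -1.01, -0.10, -0.17 and -1.27. Both were therefore highest at 3 h, which the same choice favours, and at 12 h lay below untreated cells by less than 0.3. With the median over all probes CBFA2T2 differed by -0.39 only, and BAIAP2L2 by -0.91, both under 2-fold.

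**Figure D3:**
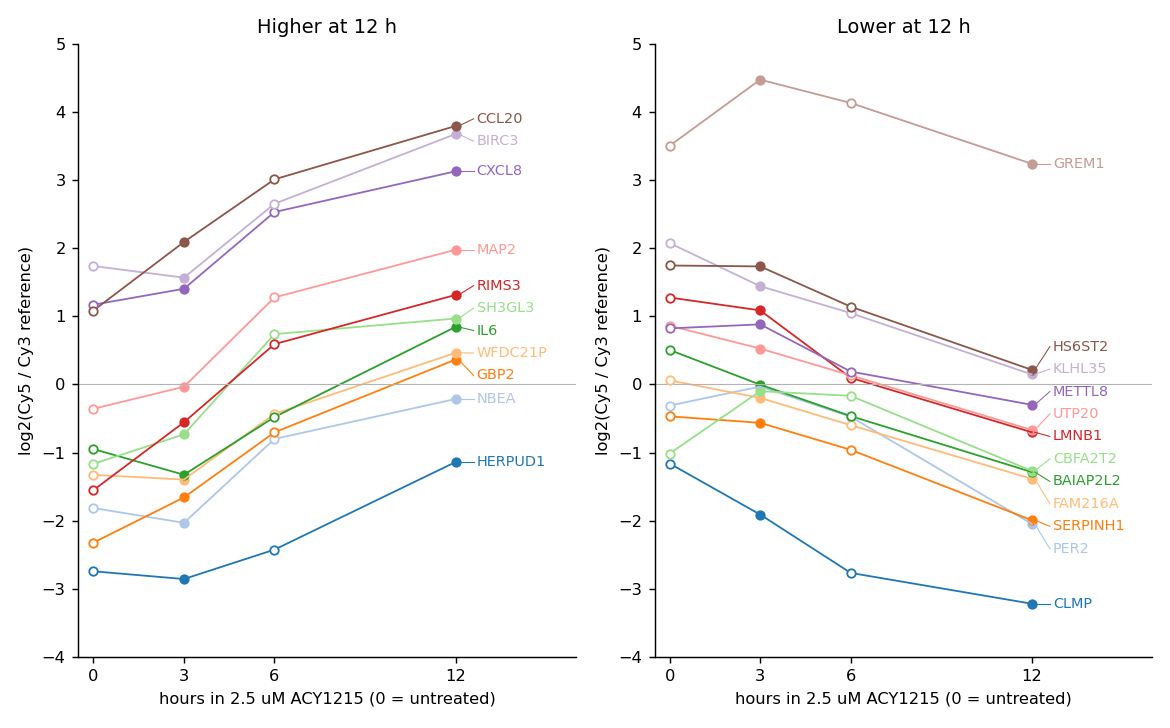
Log2 ratios of Cy5 over the Cy3 reference (y axis) against hours in 2.5 uM ACY1215 (x axis, 0 for untreated), 1 line per gene, for the 11 named genes higher (left) and the 12 lower (right) at 12 h than at 3 h. Filled points are the arrays that chose the genes and open points the arrays that did not. GREM1 and CBFA2T2 peak at 3 h, and CCL20 is higher on each later array.

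Across the 30 gene lists 662 different genes were compared. Among them 21 genes (3.17%) passed 2-fold upward, beside 1.82% of all genes, and 2 (0.302%) downward, beside 1.29%. The listed genes are mostly protein-coding, and all genes compared are not. Among 13524 genes matched to protein-coding names 246 were higher and 115 lower. The lists were chosen with earlier results of these data known. In 18 lists no member passed 2-fold. List medians ran from -0.42 for clustered histone genes to 0.42 for chemokines and cytokines, beside 0.0061 for all genes. These are descriptions of 2 arrays.

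**Figure D4:**
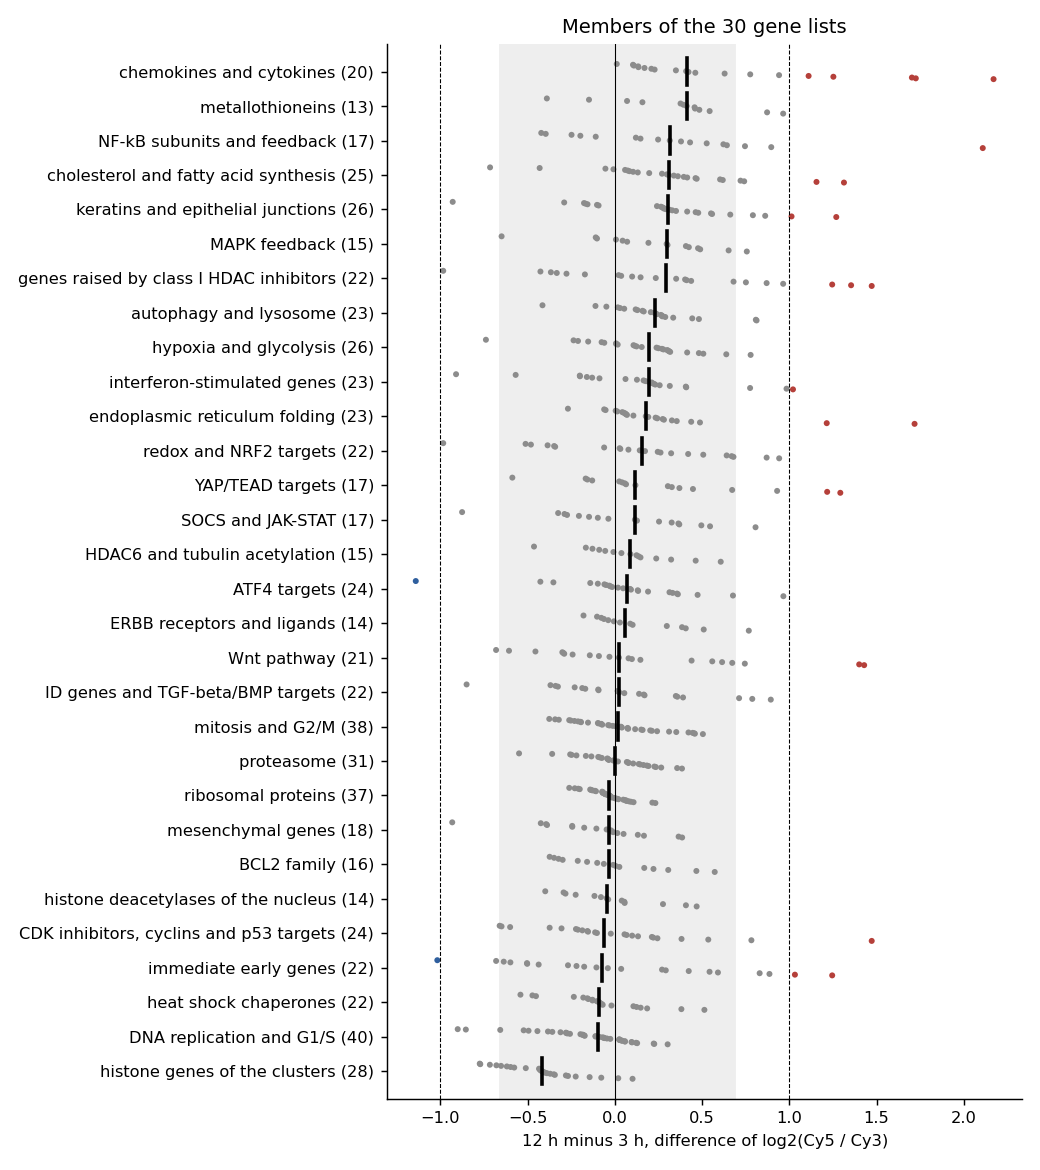
Each point is 1 gene of a list, placed by its difference in log2 ratio between 12 h and 3 h (x axis), with lists ordered by their median (black bar) and the number of members compared in brackets. The grey band holds 9 in 10 of all genes, from -0.66 to 0.69, dashed lines mark 2-fold, and red and blue points are members past 2-fold. The histone points lie mostly left of 0, and all 20 cytokine points lie right of it.

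All 20 chemokine and cytokine genes that passed the filters, of 25 listed, were higher at 12 h (50.7% of all genes were), and 5 passed 2-fold. The other 5 had no spot that passed. Beside IL6, CXCL8 and CCL20 these were IL11, at 1.47 in untreated cells, 1.36 at 3 h, 2.39 at 6 h and 2.61 at 12 h, and LIF, at 0.12, -1.53, -1.39 and -0.42. Both signal through the receptor gp130, as IL6 does. LIF at 12 h thus remained below its untreated value. A second probe of LIF gave -0.47, so its direction is uncertain. CSF2 (0.94) and IL1B (0.78) came next, and CSF3 (0.11), IL23A (0.10) and CXCL5 (0.01) were within the error of repeated spots. In the Cy5 channel alone the median of the list was 0.82, against 0.42 by ratio, so its size depends on the measure. The median Cy3 change was -0.01 for this list and -0.13 over all genes, which does not account for that gap. Single members changed more in Cy3, and 17 of the 20 genes remained when Cy3 had to be within 1.5-fold.

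Genes of the NF-kB pathway itself, its subunits and its feedback inhibitors, had a median of 0.31 with 12 of 17 higher, and BIRC3 alone passed 2-fold. Of the feedback and target genes, TNFAIP2 was at 0.90, BCL3 at 0.75, NFKBIA (I-kappa-B alpha) at 0.53 and TNFAIP3 (A20) at 0.38. The subunit genes were split, with NFKB2 at 0.62, RELA at 0.15, RELB at -0.20, NFKB1 at -0.40 and REL at -0.42.

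**Figure D5:**
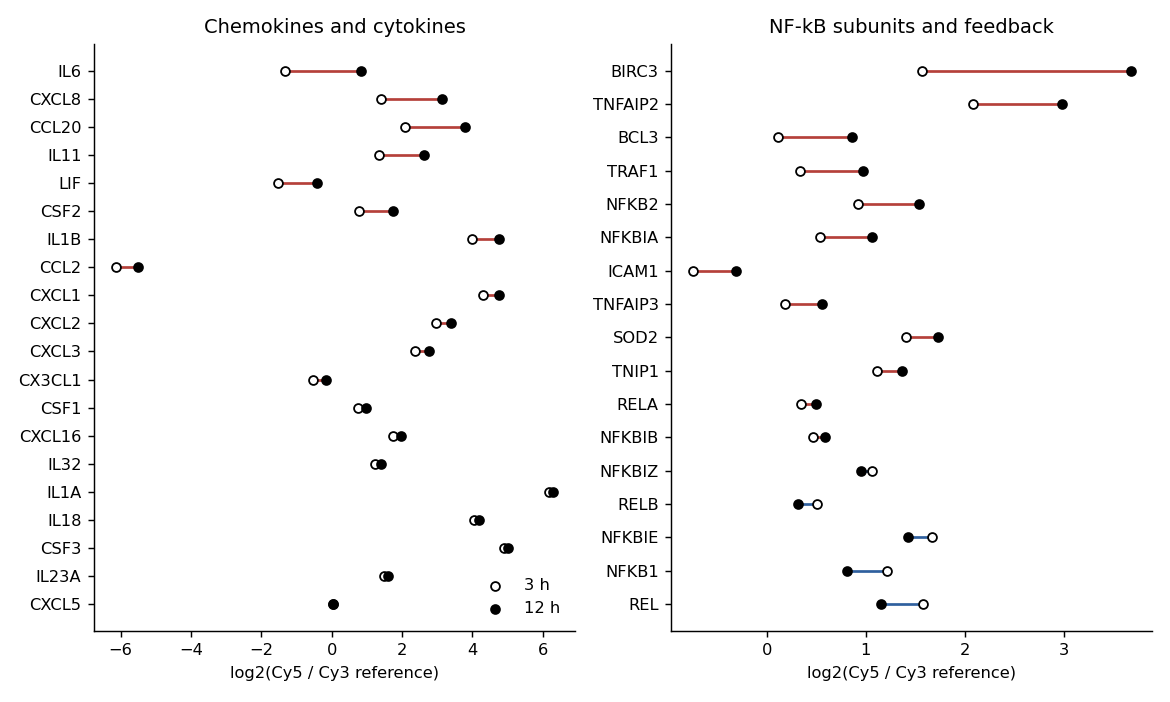
Log2 ratio of Cy5 over the Cy3 reference (x axis) at 3 h (open points) and 12 h (filled points) for 20 chemokine and cytokine genes (left) and 17 NF-kB genes (right), ordered by the difference. All 20 cytokine genes have the filled point to the right, by 0.01 at CXCL5 to 2.17 at IL6, while NFKBIZ, RELB, NFKBIE, NFKB1 and REL have it to the left.

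Among 17 genes of the JAK-STAT pathway none passed 2-fold (median 0.11). STAT3, the transcription factor downstream of gp130, was at 0.81 and STAT6, the factor of interleukin-4 signalling, at -0.88. SOCS3, the feedback inhibitor of gp130, was at -0.15. Of 23 interferon-stimulated genes 16 were higher (median 0.19, and 0.05 with the offset of 50). IFIT1, a sensor of foreign RNA, passed 2-fold, standing at -1.96 in untreated cells, -1.76 at 3 h, -0.91 at 6 h and -0.74 at 12 h. Its difference of 1.02 fell under 2-fold with the offset of 50 (0.79) and in the Cy5 channel alone (0.85). IFI44, in the same list, was at -0.91.

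Endoplasmic reticulum chaperones and their regulators were higher in 20 of 23 genes, though most by little (median 0.18). HERPUD1 and HSPA5 passed 2-fold. HSPA5, the chaperone BiP, stood at -1.42 in untreated cells, -1.12 at 3 h, -0.64 at 6 h and 0.09 at 12 h. CALR (0.49) and MANF (0.44) came next and the sensor ERN1 (IRE1) was lowest at -0.27. The ATF4 branch of the same stress response had a smaller median, 0.07 over 24 genes, in which DDIT4 was at 0.97 and ATF5 passed 2-fold downward. ATF5, a transcription factor of that branch, stood at 0.43, -0.29, -0.80 and -1.44, and its difference of -1.14 became -0.53 with the offset of 50. Heat shock chaperones leaned the other way, with 16 of 22 lower (median -0.09) and none past 2-fold. HSPB8 was at -0.54, HSPD1 at -0.47 and HSPA1L at 0.51. HSPA1A and HSPA1B, near-identical genes whose probes cannot be told apart with certainty, were at -0.09 and -0.08.

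Sterol genes were higher in 21 of 25 (median 0.31). INSIG1, which holds the sterol sensor in the endoplasmic reticulum, stood at -1.06 in untreated cells, -0.56 at 3 h, 0.57 at 6 h and 0.75 at 12 h, a difference of 1.31. Its untreated spot failed the checks of detection, outlier flags or damage, so that value is uncertain. HMGCS1 of cholesterol synthesis was at 0.74, whereas ELOVL6 and ACACA of fatty acid synthesis were at -0.72 and -0.43. In the list of metallothioneins, small metal-binding proteins, 11 of 13 genes were higher (median 0.41). These 13 include SLC30A1 and MTF1, which are not metallothioneins. MT1X (0.96) led the list. Metallothionein sequences are so alike that probes may read each other's transcripts, and MT1H was dim at 19.1 units. Autophagy and lysosome genes were higher in 20 of 23 (median 0.23), with MAP1LC3A and WIPI1 both at 0.81, and none passed 2-fold.

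The immediate early genes were split in both directions. Of 22, 10 were higher and 12 lower, with a median of -0.07 that turned to 0.23 in the Cy5 channel alone. EGR1, a zinc-finger factor induced by MAPK signalling, was the lowest at -1.02, and stood at -3.79 in untreated cells, -3.40 at 3 h, -3.41 at 6 h and -4.41 at 12 h. EGR2 (-0.68), NR4A3 (-0.64), FOSB (-0.60) and FOS (-0.44) lay on the same side. KLF6 was at -0.83, -1.46, -1.19 and -0.21 on the 4 arrays, and ATF3 at -2.20, -1.64, -0.82 and -0.60, so that both were more than 2-fold higher at 12 h than at 3 h. JUND (0.89) and JUNB (0.83) lay with them. ATF3 had 4 passing probes, and the others gave a median of 0.26. Its difference was 0.97 with the offset of 50 and 0.83 in the Cy5 channel alone, both under 2-fold. A second probe of KLF6 gave 0.68, and the median over its probes was 0.96, under 2-fold. The MAPK feedback genes, phosphatases and inhibitors of that pathway, were higher in 12 of 15 (median 0.30), led by DUSP1 (0.76) and DUSP6 (0.65), and SPRY4 was at -0.65.

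Among 22 genes known to be raised by inhibitors of class I deacetylases 16 were higher (median 0.29, and 0.11 with the offset of 50). CDKN1A stood at 0.75 in untreated cells, 1.21 at 3 h, 2.24 at 6 h and 2.68 at 12 h. CRIP2, a LIM-domain protein, stood at -1.03, -1.22, -0.68 and 0.14. With the offset of 50 both were under 2-fold, CDKN1A at 0.82 and CRIP2 at 0.79. KLF6 was the third past 2-fold, with the probe limit given above. H1F0, the linker histone used as a marker of differentiation, was at 0.75. The 6 lower members were TXNIP (-0.98), a thioredoxin inhibitor, and the histone genes HIST1H2BD (-0.43), HIST1H2AC (-0.37), HIST1H1C (-0.33), HIST1H2BK (-0.28) and HIST2H2BE (-0.17). TXNIP stood at -2.58, -1.37, -1.84 and -2.35, and so was highest at 3 h.

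Clustered histone genes, which supply histones during DNA synthesis, were lower in 26 of 28 (median -0.42), and none passed 2-fold. They ran from 0.10 at HIST1H2AB to -0.77 at HIST1H3B and HIST1H4A. Under the 11 alternatives that kept the 2-fold rule the median lay between -0.44 and -0.39. Copies of these genes are near-identical, so single members are uncertain, and their mRNA mostly lacks the poly(A) tail on which such labelling starts. DNA replication genes were lower in 26 of 40 by a smaller amount (median -0.10), with CCNE2, cyclin E2, at -0.90, TYMS, thymidylate synthase, at -0.85 and MCM5 of the replicative helicase at -0.66. Mitotic genes did not lean to either side (20 of 38 higher, median 0.02). Among 24 cyclins, CDK inhibitors and p53 targets, CDKN1A alone passed 2-fold, with the limit given above (median -0.06), with CDKN1C at 0.78 and CDK6 at -0.66.

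Junction genes gave the remaining larger group. Keratins and epithelial junction genes were higher in 19 of 26 (median 0.30). CLDN1, a tight junction claudin, stood at 0.24 in untreated cells, 1.097 at 3 h, 1.56 at 6 h and 2.37 at 12 h. CLDN4 stood at -1.78, -0.998, -0.47 and 0.02, but its other probe gave -0.22, so its direction is uncertain. KRT19 was at 0.86 and the desmosomal plakophilin PKP3 at -0.93. None of 18 mesenchymal genes passed 2-fold (median -0.03), and ZEB1, a repressor of CDH1, was at -0.93.

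Of 17 YAP/TEAD targets 13 were higher (median 0.12). CYR61, a matricellular protein, stood at -0.91 in untreated cells, 0.68 at 3 h, 1.98 at 6 h and 1.90 at 12 h, so its difference was complete by 6 h. EDN1, endothelin-1, stood at -2.05, -1.94, -1.44 and -0.65. Cy3 of EDN1 fell by 0.91 from 3 h to 12 h, and its Cy5 signal alone differed by 0.50, so most of its difference lies in the reference. CTGF was at 0.93. In the Wnt list 11 of 21 were higher (median 0.02) and DKK1 and WNT7B passed 2-fold. DKK1, a secreted Wnt antagonist, stood at 2.82, 1.26, 1.64 and 2.66, and thus was low at 3 h and near its untreated value at 12 h. WNT7B was dim, with 31.8 units at 3 h and 73.2 at 12 h, and its difference of 1.43 became 0.23 with the offset of 50.

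No member passed 2-fold in the lists of redox and NRF2 targets (15 of 22 higher, median 0.16), hypoxia and glycolysis (20 of 26, 0.20), ERBB receptors and ligands (8 of 14, 0.06), ID and TGF-beta or BMP targets (13 of 22, 0.02) or the BCL2 family (7 of 16, -0.04). Their widest members were AKR1B10 at 0.94 and TXNIP at -0.98, EGLN3 at 0.78 and BNIP3L at -0.74, ERBB4 at 0.77 and NRG2 at -0.18, TGIF1 at 0.89 and PMEPA1 at -0.85, and BCL2L1 at 0.57 and BBC3 at -0.37. PMEPA1 lay in a damaged area. Genes that most cells need were nearly level: 31 proteasome genes had a median of 0.0021 and a range of -0.55 to 0.38, and 37 ribosomal protein genes a median of -0.03 and a range of -0.26 to 0.23.

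Genes with a Cy5 signal well above background on 1 of the 2 arrays have only a bound. For it the dim Cy5 signal was set to the higher of itself and the lowest signal that passed on that array (16.2 units at 3 h and 22.1 at 12 h), and each Cy5 signal was then divided by the Cy3 signal of its own array. At 12 h 187 genes were seen that were not at 3 h, 73 of them by at least 2-fold, and at 3 h 1061 were seen that were not at 12 h, 99 of them by at least 2-fold. Chosen after their values were seen, MYLK3, a heart muscle kinase, was at least 4.78-fold higher at 12 h, FNDC5, the precursor of irisin, at least 4.73-fold and TMEFF2, a transmembrane protein with follistatin domains, at least 4.54-fold. GPR171, a G protein-coupled receptor, was at least 3.55-fold lower at 12 h, MIR155HG, the host transcript of miR-155, at least 3.06-fold and IL17RB, a receptor of interleukin-25, at least 2.92-fold. All of these signals were under 100 units, and the shares of detected spots on the arrays, given above, differ in the same direction as the 1061 against 187.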

How the data were processed

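RNA of SUM149 cells was hybridised to 2-colour Agilent arrays, and the deposited scanner files give intensity per spot, extracted by the authors with Feature Extraction 12.0.1.1, already background-subtracted and dye-normalized. The authors also deposited a table of log2 values, normalized with steps not given in the sources used here, which was used as an alternative only. From the processed signals the log2 ratio of Cy5 to Cy3 was computed per spot, spots of a probe were averaged, and 12 h minus 3 h was taken per gene with no further scaling. Spots had to be well above background in both dyes, unflagged and within 2-fold in Cy3, and 2-fold was the line for a difference. With 1 array per time point no test was run. A check on planted changes was made. Named genes were HDAC6, the 12 largest stable differences in each direction, and list members past 2-fold or, failing these, at the ends of a list, and members whose role is described. Members, rule and lists were chosen with earlier results of these data known. Alternatives were normexp (limma 3.58.1) with offsets of 50 and 1, the authors' table, median centring, Cy5 alone, other Cy3, detection and fold limits, probe medians and leaving out damaged areas. Damaged areas are windows of 13 rows and 7 columns in which at least 10% of spots had aberrant Cy3. Arrays give no read depth; their number limits the precision. Some items are not reported here.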

Additional observations from a re-analysis of the deposited data

How the results depend on the processing

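No paired analysis was possible because the groups share fewer than 2 replicate numbers. Against 378 genes higher and 268 lower, the counts were 65 and 88 with normexp and an offset of 50, 183 and 186 in the authors' table, 804 and 961 when the weaker detection call (positive and significant signal) was enough, 83 and 45 among genes with Cy5 above the median, 246 and 115 among the 13524 genes matched to protein-coding names (chosen after seeing the data), 1488 and 1366 at 1.5-fold, and 15 and 9 at 4-fold. Counts under the other alternatives stayed within 1.5 times. The share of higher genes among those past 2-fold was 58.5%, 42.5% with the offset of 50, 49.6% in the authors' table and 45.6% with the weaker detection call. The Cy5 channel alone had a median shift of -0.12 over all genes, which was taken off before counting. Of the 646 genes, 99 kept 2-fold with the offset of 50 and 414 in Cy5 alone. Of 330 list medians under alternatives 12 moved by more than the SD of repeated spots, and 0 list medians larger than that SD turned sign. For 43 genes examined one by one, 100 of 430 values under alternatives moved by more than that SD. Of those genes past 2-fold, 13 fell under 2-fold in at least 1 alternative, and 0 turned sign. Low signal limits the dim genes most, and no alternative replaces a second culture.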

Other observations

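Further gene groups were set out after the values above were known, so their counts describe and support nothing. Among 20 circadian clock genes 11 were lower at 12 h than at 3 h (median -0.04). CRY2, a repressor that pairs with PER2, stood at -0.33 in untreated cells, 0.77 at 3 h, 0.40 at 6 h and -0.47 at 12 h, a difference of -1.24. In the Cy5 channel alone its difference was -0.57, since its Cy3 signal was 0.56 higher at 12 h. TEF, a clock output factor, was at -0.99, NR1D2 at -0.81 and PER3 at -0.48, while BHLHE40 was at 0.79 and CRY1 at 0.55. Among 17 genes of the nuclear lamina and envelope LMNB1 was the lowest and EMD, emerin, the highest at 1.07, and LMNA, which encodes the A-type lamins, was at 0.38 and LMNB2 at -0.20.

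Of 47 neuronal and synaptic genes 35 were higher at 12 h and 15 were at least 2-fold higher, beside 1.82% of all genes compared, a list written with some of these genes in view. The median was 0.44, and 0.21 with the offset of 50. NCAM1, the neural cell adhesion molecule, had the largest difference of all genes compared at 2.82, but it was dim, with 23.9 units at 3 h and 197.4 at 12 h, and the offset of 50 gave 0.72. Its log2 ratio was -5.96 in untreated cells, -5.62 at 3 h, -6.17 at 6 h and -2.81 at 12 h. NRGN, a calmodulin-binding protein of dendritic spines, stood at -0.67, -0.20, 0.47 and 1.38, KIF5C, a kinesin of axons, at -0.23, 0.44, 1.22 and 1.87, and SYTL2, a synaptotagmin-like protein, at -3.84, -3.03, -1.73 and -1.34. These 3 were higher on each later array. MAPT, the protein tau, was at 1.61, and SYN1, a synaptic vesicle protein, lay on the other side at -0.52.

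Some stable genes had an untreated value nearer to that at 12 h than to that at 3 h, or a higher value at 3 h than later, and the following were chosen for such courses. IL24, a cytokine of the interleukin-10 family, stood at 3.57 in untreated cells, 2.49 at 3 h, 2.28 at 6 h and 3.92 at 12 h, and ZNF165, a zinc-finger protein, at 1.59, 0.31, 0.52 and 1.70. CCDC96, a coiled-coil protein, stood at -0.24, 1.81, 1.79 and 0.69. At 12 h the first 2 were within 0.36 of their untreated values and CCDC96 was not.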
